A study of Homo sapiens with 6 samples.

Results

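The 124 genes described here carry the words protein kinase in the InterPro protein domain description that the authors deposited beside each gene. They are the matching genes among 3511 listed, less 23 genes left out by name (mitotic and DNA damage checkpoint kinases such as AURKA, PLK1, CDK1 and ATR, the growth factor receptors EGFR, ERBB2, ERBB3, INSR, IGF1R and MET, and TRIB3 and PIK3R4). Of those names, 18 were among the 142 matching genes. The domain descriptions of 37 listed genes end at 255 characters, so a gene whose kinase domain is named after that point is not in the set. Of the 124 genes, 90 have a named catalytic domain, 8 have only a kinase-like fold, and 26 have neither. Those 26 are mostly partners of kinases or proteins that share a domain with one. The working name of the set, protein kinases outside the cell cycle, does not hold for every gene in it, because 14 of them stand in a list of kinases that act in cell division. They are therefore called kinase-annotated genes.

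RNA was measured in RKO cells, an established line of human colorectal carcinoma cells with the genotype given as WT, after 48 h in one of 2 media. Control medium held 10% fetal bovine serum (FBS) and 4.5 g/L glucose (3 samples). Fasting medium held 1% FBS and 1 g/L glucose (3 samples), so serum and glucose fell together and their effects cannot be told apart. No sample of the drug treatments in the series' design text was analysed here. The labels do not say that samples with the same medium grew as separate cultures. P-values thus measure only how far these samples spread, and that spread may be technical.

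Protein kinases move a phosphate group from ATP onto serine, threonine or tyrosine of other proteins, and so switch enzymes, transcription factors and structural proteins on or off. Receptor tyrosine kinases on the cell surface bind growth factors from serum, cascades of MAP kinases relay such signals inward, and other kinases sense energy, amino acids, protein folding in the endoplasmic reticulum or damage. The amount of a kinase mRNA is only one layer of this control, since most kinases are themselves switched by phosphorylation, which was not measured.

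The deposited table holds only the genes that the authors called between the media, 11.8% of the 29845 they tested. A kinase gene outside it has no value here. Each listed gene had groups that do not overlap (100% of listed genes), which follows from that selection, and no kinase-annotated gene had a log2 fold change closer to 0 than 0.52. The listed genes held 4017618 to 5602177 reads per library, and the 124 genes held 77081 to 149592 of these. Fasting replicate 3 stood apart from the other fasting libraries: it read low for long transcripts. Of 11 epithelial marker genes only KRT18 was listed, and of 14 fibroblast and blood cell markers none was, so the cell type could not be checked further.

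Values are normalized counts, that is, reads divided by a size factor per library. They compare a gene between samples, and only values per kilobase of transcript compare genes with one another. A log2 fold change is the mean of log2(normalized count + 1) in fasting medium less that in control medium, with its standard error (SE, n = 3 per group). A gene is said to have risen or fallen where limma's two-sided adjusted p, over all 29845 genes, was under 0.05. Changes given as a value alone or as a value ± SE are log2 fold changes. Where a call is said to be lost without certain libraries, these were left out one at a time.

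By this rule 47 of the 124 genes rose and 69 fell, and 8 did not pass. Of all listed genes, 94.3% passed in either direction, so it is the split between directions that describes the set. Here 37.9% rose, where 49.7% of listed genes did, and 55.6% fell, where 44.6% did. The median log2 fold change was -0.64, against 0.53 over all listed genes, and lay at -0.49, -0.54 and -0.67 in the 3 fasting libraries taken one by one. Because values near 0 are absent from the table, a median over listed genes jumps from one side to the other with a small change in the split. A change of at least 2-fold was seen in 46 genes, 23 up and 23 down, or 37.1% of the set, where 46.4% of listed genes had one (26.6% up and 19.8% down). In these bulk samples, fewer cells that express a gene and less of its RNA per cell cannot be told apart.

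**Figure D1:**
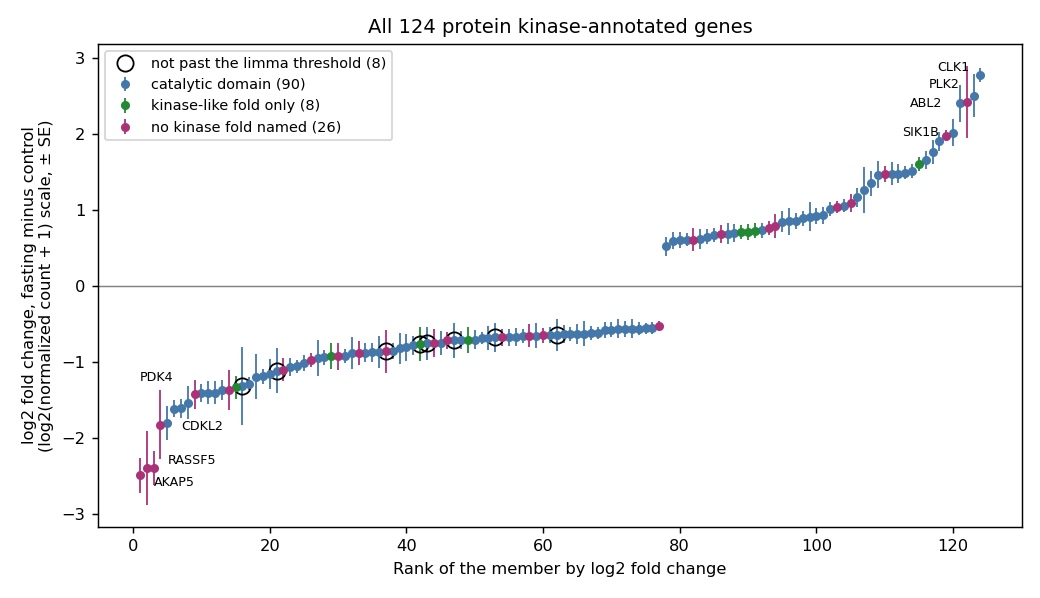
Log2 fold change of each of the 124 kinase-annotated genes (vertical axis, fasting minus control, with SE bars) in order of size (horizontal axis), coloured by what the domain description names, with open rings around the 8 genes that did not pass. The values run from -2.49 (AKAP5) to 2.78 (CLK1), with none between -0.52 and 0.52.

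The split depends on how libraries are scaled. When each library was scaled to its reads in listed genes, and tested with edgeR, log2 fold changes moved by -0.47 (median over listed genes), and 22 of the 124 genes rose and 76 fell (25% and 49.4% of listed genes). The 25 rises lost were those of DDR2, KIAA1324 and every gene that rose less than 2-fold except CLK4, namely ABL1, VRK3, MAPKAPK2, MLKL, ARHGAP29, CDK7, NRBP1, FYN, PRKAG1, MAP2K5, STK17B, CHKA, COQ8A, RIOK2, TESK1, ASCC1, ARHGEF28, PLK3, HUNK, PIM1, CSNK2A2, LATS2 and ACVR1. Under the scaling that DESeq2 uses, refitted to the listed genes (RLE, with edgeR), values moved by 0.21, 47 genes rose and 48 fell (50.1% and 35.2% of listed genes). The 21 falls lost there were those of MAP3K1, JAK2, MAP3K21, MAP3K5, CDKL1, PKN2, BAZ1B, FGFR2, EEF2K, PRKX, CAMK2G, PRKAR2A, DYRK2, CAMK1D, HASPIN, CASK, STRADB, TYK2, ADCK2, FGFR4 and STK11. Rises over 2-fold other than those of DDR2 and KIAA1324 passed under both scalings. So did every fall of at least 2-fold but that of MAP3K1. TMM scaling with edgeR gave 47 rises and 70 falls, as did edgeR with the authors' size factors. DESeq2 with those factors gave 47 rises and 76 falls. Total reads, RLE and TMM could be taken only over the genes in the table. The authors had called each of these different between the media, so such scalings lack a base of unchanged genes. Which scaling is right was not tested.

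CLK1 rose most. It is a dual-specificity kinase of the nucleus that phosphorylates the serine- and arginine-rich splicing factors. Its normalized counts were 544, 593 and 547 in control and 3628, 3731 and 4246 in fasting, with the fasting libraries close together and far above the controls, a log2 fold change of 2.78 ± 0.09, adjusted p = 5.5e-06. CLK4, a near relative, rose less: its counts were 210, 181 and 185 in control and 336, 380 and 386 in fasting, a log2 fold change of 0.93 ± 0.11, adjusted p = 0.0012. DYRK3 belongs to the same wider group and regulates the dissolution of condensates such as stress granules. It read 895, 860 and 847 in control and 2574, 2669 and 2245 in fasting (1.52 ± 0.09, adjusted p = 5.6e-05). Its relative DYRK2, a kinase linked to p53 and the proteasome, had 1233, 1230 and 1129 in control and 897, 858 and 572 in fasting (-0.65 ± 0.17, adjusted p = 0.046). That fall was lost without control replicate 1, 2 or 3 or fasting replicate 2 (adjusted p 0.061 to 0.18), and its value was -0.0073 with the length trend removed. PRPF4B, a kinase of the spliceosome, fell too (-0.71 ± 0.12, adjusted p = 0.0051). Of 19 symbols in the list of DYRK, HIPK, CLK, SRPK and GSK3 kinases, 5 were listed, of which 3 rose and 2 fell.

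The second large rise among kinases with many reads was that of ABL2, a cytoplasmic tyrosine kinase that binds actin. Its counts were 2649, 2575 and 2667 in control and 18275, 16770 and 8883 in fasting. Fasting replicate 3 held far fewer than the other fasting libraries, and the log2 fold change (2.41 ± 0.25, adjusted p = 0.00057) was 2.73 without it. The ABL2 transcript is 12144 bases long, among the longest of the set. ABL2 alone went from 2.47% to 12.6% of the summed normalized counts of the 124 genes. ABL1, its paralogue and the target of the leukaemia drug imatinib, rose by much less (4484, 4367 and 5016 in control and 7265, 7179 and 5587 in fasting, log2 fold change 0.52 ± 0.12, adjusted p = 0.028), and its call was lost without control replicate 1, 2 or 3 or fasting replicate 1 or 2 (adjusted p 0.060 to 0.14). Of the other cytoplasmic tyrosine kinases, FYN of the SRC family rose (0.67 ± 0.09, adjusted p = 0.0019). SYK, an immune receptor kinase also found in epithelia, fell (-0.63 ± 0.09, adjusted p = 0.0028), as did TYK2 and JAK2, which signal from cytokine receptors, at -0.58 and -0.95. The fall of JAK2 was lost without control replicate 1, 2 or 3 or fasting replicate 2 (adjusted p 0.056 to 0.15). In all, 3 of 6 listed genes of this group rose and 3 fell, against 1 up and 3 down when libraries were scaled to their reads in listed genes and 3 up and 1 down under RLE.

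A stretch of the RefSeq promoter is shown for CLK1 and ABL2, the largest rises among genes with at least 100 normalized counts, and for CIT, which fell. Each holds, in capitals, the 6 letters TTTGAA or their reverse complement, the core of the cell cycle homology region (CHR) that cell cycle genes often carry. The sequences come from the promoter table of RefSeq (GRCh38.p14), read 5′ to 3′ on the gene's own strand, which is the minus strand for all of them. The build used by the authors is not given in the sources used here. The stretches lie at chr2:200864844-200864903 for CLK1, chr1:179143242-179143301 for ABL2 and chr12:119877496-119877555 for CIT.
CLK1: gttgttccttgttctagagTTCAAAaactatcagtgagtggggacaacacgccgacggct
ABL2: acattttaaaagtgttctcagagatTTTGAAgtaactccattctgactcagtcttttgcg
CIT: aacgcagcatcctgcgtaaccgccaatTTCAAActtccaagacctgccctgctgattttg
The motif is thus found in genes that rose and in genes that fell. In the 250 bases before the start, searched on both strands, it was in 5 of the 99 kinase-annotated genes with a promoter in the table (5.05%), against 13.6% of 27305 promoters. The others were JAK2 and SGK1. The heat shock element GAANNTTC or TTCNNGAA was in CDKL1, CAMK1D and CASK (3.03%, against 11.7%), and TGATGCAA, a site type bound by ATF4, was in none, against 0.820%. Outside the plan, the CRE motif TGACGTCA was in EPHA2 (1.01%, against 1.77%). The CDE-type motif TTTGGCGC or TTTCGCGC was in MAP3K20 (1.01%, against 0.996%). All 27305 promoters are not a background of listed genes, so these shares show no trait of the set. A match describes these letters only.

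**Figure D2:**
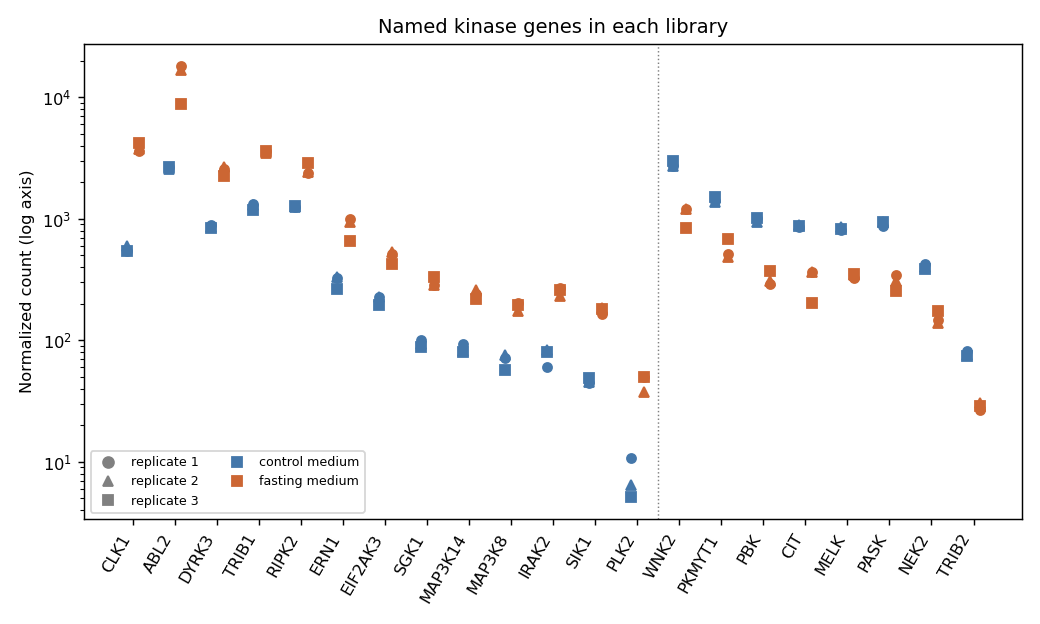
Normalized counts (vertical log axis) of 21 kinase genes in each library, with control medium in blue, fasting medium in orange and a marker shape per replicate; the dotted line parts genes that rose from genes that fell. ABL2 is the gene whose fasting libraries spread most, from 8883 to 18275 normalized counts.

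EIF2AK3 and ERN1, which encode sensors of protein folding stress in the endoplasmic reticulum, rose. EIF2AK3 encodes PERK, which phosphorylates eIF2-alpha and so slows translation, and its counts were 229, 229 and 196 in control and 515, 533 and 429 in fasting (1.17 ± 0.12, adjusted p = 0.00064). ERN1 encodes IRE1-alpha, which splices XBP1 mRNA, and read 325, 331 and 267 in control and 994, 940 and 655 in fasting (1.47 ± 0.17, adjusted p = 0.0010). Fasting replicate 3 was the lowest fasting library for each gene. The other 3 kinases of eIF2-alpha were not listed. From a list of 12 genes for eIF2-alpha phosphorylation and its reversal, 3 were listed: PPP1R15A, the subunit that directs a phosphatase to eIF2-alpha, rose by 3.47 on the log2 scale, DNAJC3, an inhibitor of PERK, rose by 0.95, and GCN1, an activator of the amino acid sensor GCN2, had -0.70 and did not pass.

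Of the 6 listed kinases of the RAF, MLK, IRAK, RIPK and LIMK list, 4 rose, 1 fell and 1 did not pass. IRAK2, an adaptor-like kinase of Toll-like and interleukin-1 receptors, had 60.2, 83.8 and 79.9 in control and 272, 231 and 259 in fasting (1.76 ± 0.16, adjusted p = 0.00030). RIPK2, which relays signals of the intracellular NOD receptors, had 1256, 1258 and 1269 in control and 2369, 2441 and 2881 in fasting (1.02 ± 0.09, adjusted p = 0.00036). From the MAP kinase cascade list, MAP3K14 (NIK) starts the non-canonical NF-kappaB pathway and had 93.7, 81.0 and 80.7 in control and 241, 258 and 219 in fasting (1.48 ± 0.13, adjusted p = 0.00025). For MAP3K8 (TPL2), which activates ERK downstream of such receptors, the counts were 72.0, 76.0 and 56.7 in control and 202, 175 and 195 in fasting (1.48 ± 0.15, adjusted p = 0.00057). The lowest fasting library was 1.87 times the highest control for RIPK2 and 2.30 to 2.76 times for the others. Smaller rises were those of MLKL, the pseudokinase that executes necroptosis (0.61 ± 0.09, adjusted p = 0.0024), and TESK1, which phosphorylates the actin regulator cofilin (0.73 ± 0.10, adjusted p = 0.0024). MAP3K21, a mixed-lineage kinase, fell (-0.88 ± 0.21, adjusted p = 0.032), though not without control replicate 1, 2 or 3 (adjusted p 0.10 to 0.13), and MAP3K20 (ZAK) had -0.68 and did not pass.

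The list of MAP kinase cascade kinases also holds related kinases, such as PBK, STRADB and PAK6. Of its 11 listed genes, 8 fell, PBK, STRADB and PAK6 among them, and 3 rose (MAP3K14, MAP3K8 and MAP2K5, the activator of ERK5). Under RLE 5 fell and 3 rose, and when libraries were scaled to their reads in listed genes 8 fell and 2 rose. Losses without a library were those of MAP2K5 without control replicate 1 or 2 (adjusted p 0.065 to 0.078), MAP3K5 without control replicate 1, 2 or 3 or fasting replicate 2 (adjusted p 0.071 to 0.14), MAP3K1 without control replicate 1, 2 or 3 (adjusted p 0.12 to 0.14) and STRADB without control replicate 1 or 2 (adjusted p 0.052 to 0.062). MAP3K1, an activator of JNK and ERK with a ubiquitin ligase domain, had 317, 317 and 287 in control and 180, 168 and 78.4 in fasting (-1.19 ± 0.29, adjusted p = 0.036). MAP3K4 and MAP3K5 (ASK1), which answer stress through p38 and JNK, had -0.87 and -0.87. Falls were also seen in MINK1 (-0.92) and TAOK2 (-0.62), kinases of the STE20 family, and in PAK6 (-0.66), an effector of CDC42. The exons of PAK6 overlap on the same strand with those of the BUB1B-PAK6 readthrough gene over 39.5% of their bases, so its reads are uncertain. MAPK9 (JNK2) was the only listed MAP kinase, with 1515, 1566 and 1478 in control and 960, 929 and 945 in fasting (-0.69 ± 0.08, adjusted p = 0.00075). MAPKAPK2, a target of p38 that stabilises cytokine mRNAs, rose (0.60 ± 0.11, adjusted p = 0.0073).

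Of 27 ligands, adaptors and scaffolds of MAP kinase signalling, 5 were listed, of which 4 rose and 1 fell. Over all listed genes 49.7% rose and 44.6% fell, and this list too was drawn up with earlier results known. HBEGF and BTC, ligands of the EGF receptor, rose by 1.52 and 1.27, LAMTOR3, a scaffold for ERK on late endosomes, by 1.21, and SOS2, which loads RAS with GTP, by 0.78. TAB1, the partner of the kinase TAK1, fell (-0.59).

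Of the 8 receptor tyrosine kinases in the set, 6 fell, 1 rose and 1 did not pass. Under RLE scaling 4 fell and 1 rose, and when libraries were scaled to their reads in listed genes 7 fell and 0 rose. ERBB3 (fell, -1.76) and MET (rose, 0.76) were listed too but are left out of the set by name. EPHA2, a receptor for ephrin-A ligands on neighbouring cells, had the highest level per kilobase of the set in control medium, 1569 normalized counts per kb. Its counts were 6001, 6017 and 6641 in control and 4416, 4228 and 4007 in fasting (-0.56 ± 0.08, adjusted p = 0.0032). PTK7, a catalytically inactive receptor of Wnt and planar cell polarity signalling, had 2670, 2728 and 2921 in control and 1653, 1619 and 1334 in fasting (-0.86 ± 0.10, adjusted p = 0.0012). Among the fibroblast growth factor receptors, FGFR2 (-0.75), FGFR3 (-0.64) and FGFR4 (-0.56) all fell. The call of FGFR2 was lost without control replicate 1, 2 or 3 or fasting replicate 1 (adjusted p 0.052 to 0.10), and that of FGFR4 without control replicate 2 or 3 (adjusted p 0.055 to 0.062). TYRO3, a receptor for the ligand GAS6, fell too (-0.56 ± 0.08, adjusted p = 0.0026), but its value was 0.043 after removal of each library's length trend. DDR2, a receptor for fibrillar collagen, was the only one of these 8 genes to rise, with 34.5, 30.5 and 42.2 in control and 109, 113 and 52.3 in fasting (1.26 ± 0.30, adjusted p = 0.033). Fasting replicate 3 held less than the other fasting libraries, and the call was lost without control replicate 1, 2 or 3 or fasting replicate 1 or 2 (adjusted p 0.077 to 0.14). LMTK3 had 80.9, 71.8 and 43.6 in control and 29.2, 20.9 and 38.5 in fasting and did not pass (-1.12 ± 0.30, adjusted p = 0.054). ACVR1, a type I receptor for bone morphogenetic proteins, was the only listed kinase of the TGF-beta receptor family and rose (0.92 ± 0.11, adjusted p = 0.00099).

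**Figure D3:**
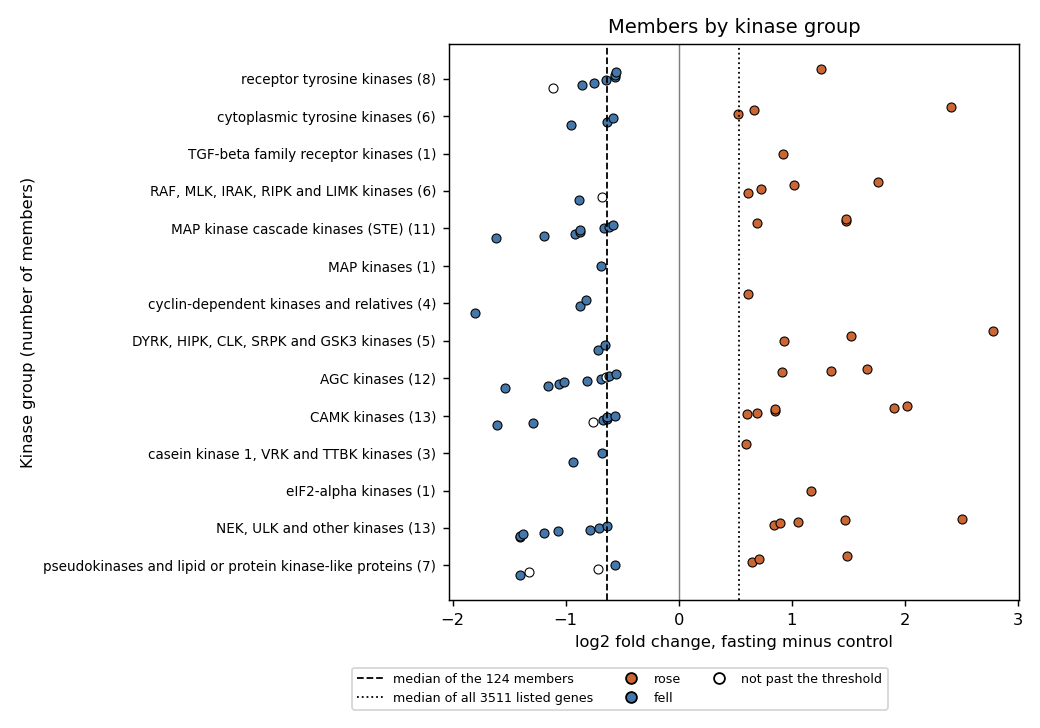
Log2 fold change (horizontal axis) of each member of the 14 kinase groups (vertical axis), filled orange for genes that rose, blue for genes that fell and white for genes that did not pass, with the medians of the 124 genes and of all listed genes as broken and dotted lines. In the group labelled MAP kinase cascade kinases, which also holds PBK, STRADB and PAK6, 8 of 11 genes lie left of 0. In the AGC group 9 of 12 do.

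Of 12 AGC kinases in the set, the group of PKA, AKT, PKC and the S6 kinases, 3 rose, 8 fell and 1 did not pass. SGK1, a kinase related to AKT whose mRNA answers stress hormones, serum and cell volume, rose with 101, 93.1 and 87.9 in control and 287, 283 and 330 in fasting (1.67 ± 0.12, adjusted p = 0.00012). AKT1, the kinase of insulin and growth factor signalling, fell with 2224, 2087 and 2408 in control and 1545, 1480 and 1345 in fasting (-0.62 ± 0.09, adjusted p = 0.0031). The ribosomal S6 kinases of the RSK and MSK families split. RPS6KA2 (RSK3) rose (23.7, 20.6 and 24.0 in control and 57.1, 66.9 and 55.0 in fasting, log2 fold change 1.35 ± 0.17, adjusted p = 0.0013), while RPS6KA1 (RSK1) fell (1443, 1400 and 1446 in control and 651, 654 and 755 in fasting, log2 fold change -1.06 ± 0.09, adjusted p = 0.00023) and so did RPS6KA4 (MSK2), at -1.01. The catalytic subunit of PKA, PRKACA, fell (-0.56 ± 0.08, adjusted p = 0.0019), as did its relative PRKX (-0.68) and PKN2, a kinase related to protein kinase C (-0.81). The call of PRKX was lost without control replicate 1, 2 or 3 (adjusted p 0.093 to 0.12) and that of PKN2 without control replicate 1, 2 or 3 (adjusted p 0.073 to 0.088). LATS2, a core kinase of the Hippo pathway that restrains YAP, rose (637, 649 and 642 in control and 1467, 1402 and 862 in fasting, log2 fold change 0.91 ± 0.19, adjusted p = 0.016), but not without control replicate 1, 2 or 3 or fasting replicate 1 or 2 (adjusted p 0.062 to 0.077). Of 14 other Hippo genes, AMOTL2 rose by 2.15 and AMOT fell (-1.72). ROCK2, which drives actomyosin contraction, had -0.64 with an adjusted p of 0.13, and -0.38 without fasting replicate 3.

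Of the 13 CAMK kinases in the set, 6 rose, 6 fell and 1 did not pass. This split turned with the scaling, to 2 up and 7 down when libraries were scaled to their reads in listed genes and 6 up and 2 down under RLE. SIK1 is a salt-inducible kinase that holds CREB coactivators in the cytoplasm. Reads of SIK1 and its near-identical copy SIK1B can be split between them by the counting, so each value is uncertain. Both are counted among the rises, here and in the totals of the set, though they may not be separate rises. SIK1 had 44.4, 45.5 and 48.7 in control and 165, 183 and 180 in fasting (1.91 ± 0.13, adjusted p = 8.2e-05), and SIK1B had 95.7, 105 and 112 in control and 371, 376 and 554 in fasting (2.02 ± 0.17, adjusted p = 0.00025). SIK2, from the same family, had -0.76 and did not pass. PIM1, a survival kinase whose mRNA is controlled by cytokines, rose (0.85 ± 0.11, adjusted p = 0.0014), as did STK17B, a kinase of the death-associated family (0.70 ± 0.12, adjusted p = 0.0053). HUNK rose by 0.85, but not without control replicate 1 or 3 or fasting replicate 1 or 2 (adjusted p 0.061 to 0.080). PASK, a kinase with a sensory PAS domain linked to nutrient state, fell with 879, 936 and 941 in control and 343, 310 and 254 in fasting (-1.61 ± 0.12, adjusted p = 0.00015). CAMK2G, a calcium and calmodulin-dependent kinase, fell (-0.67), as did CAMK1D (-0.63) and CASK (-0.63), a scaffold of cell junctions. CAMK1D was lost without control replicate 1, 2 or 3 (adjusted p 0.057 to 0.066), and CASK without control replicate 1, 2 or 3 or fasting replicate 2 (adjusted p 0.096 to 0.19). Both went to -0.04 and -0.02 with the length trend removed.

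The energy-sensing kinases were represented by STK11 (LKB1), which activates AMPK. Its counts were 1447, 1609 and 1584 in control and 976, 928 and 1268 in fasting. The fall (-0.56 ± 0.13, adjusted p = 0.025) was lost without control replicate 1, 2 or 3 or fasting replicate 1 or 2 (adjusted p 0.069 to 0.12). STRADB, its pseudokinase partner, had -0.58. PRKAG1 and PRKAG2, the gamma subunits through which AMPK binds AMP and ATP, rose (0.69 ± 0.12, adjusted p = 0.0058 and 1.04 ± 0.08, adjusted p = 0.00014). The counts of PRKAG2 were 647, 667 and 621 in control and 1361, 1310 and 1313 in fasting. EEF2K, the kinase that slows translation elongation and is a target of AMPK and mTORC1 signalling, fell (-0.71 ± 0.17, adjusted p = 0.035), though not without control replicate 1, 2 or 3 (adjusted p 0.12 to 0.14). From a list of 33 AMPK and mTOR pathway genes, which holds both gamma subunits, 12 were listed, and 11 rose and 1 fell. Over all listed genes 49.7% rose and 44.6% fell, and the list was drawn up with earlier results of these data known. SESN2, an amino acid sensor that restrains mTORC1, had 506, 517 and 589 in control and 5325, 5245 and 5548 in fasting and rose by 3.32. DDIT4 (REDD1), an inhibitor of mTORC1, rose by 2.33, RRAGC, a GTPase that recruits mTORC1 to the lysosome, by 1.76, and FLCN, which acts on that GTPase, by 1.63. EIF4EBP2, a repressor of cap-dependent translation, fell (-0.79). When libraries were scaled to their reads in listed genes, 6 of the 12 rose and 1 fell, where 25% and 49.4% of listed genes did.

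The 14 members in the list of cell division kinases had 9 falls and 5 rises, with a median log2 fold change of -0.83, and the other 110 had 42 rises, 60 falls and 8 genes not passing, with a median of -0.63. PBK, a mitotic kinase, had 1008, 941 and 1020 in control and 291, 310 and 370 in fasting (-1.62 ± 0.11, adjusted p = 0.00010). NEK2, which separates centrosomes, had 424, 403 and 387 in control and 146, 138 and 173 in fasting (-1.41 ± 0.12, adjusted p = 0.00024), and CIT, which acts in cytokinesis, had 858, 892 and 874 in control and 366, 367 and 202 in fasting (-1.54 ± 0.22, adjusted p = 0.0025). PKMYT1 and WEE1, which place the inhibitory phosphates on CDK1, fell (-1.37 ± 0.13, adjusted p = 0.00044 and -0.78 ± 0.13, adjusted p = 0.0043). The exons of PKMYT1 overlap those of PAQR4 on the opposite strand over 24.5% of their bases, and use of the strand in counting is not given in the sources used here. MELK, whose mRNA follows proliferation, had 815, 860 and 825 in control and 326, 342 and 355 in fasting (-1.29 ± 0.09, adjusted p = 8.6e-05). VRK1 (-0.94), CDK2 (-0.88) and HASPIN (-0.63), which phosphorylates histone H3 in mitosis, fell as well, the last not without control replicate 1 or 2 (adjusted p 0.058 to 0.084). The rises were those of PLK2, PLK3, LATS2, DYRK3 and CDK7, the kinase that activates other CDKs. CDK7 (0.62 ± 0.13, adjusted p = 0.017) was lost without control replicate 1, 2 or 3 (adjusted p 0.076 to 0.084). Among the 18 matching kinases left out by name, 2 rose (TRIB3 and MET), 14 fell and 2 did not pass (PRKDC and ATR), with a median of -1.22.

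PLK2 and PLK3 are Polo-like kinases that answer stress and DNA damage. PLK2 had few reads, 10.8, 6.39 and 5.09 in control and 49.5, 37.7 and 49.5 in fasting (2.51 ± 0.29, adjusted p = 0.00087), or 111 reads in fasting and 27 in control. PLK3 had 185, 166 and 183 in control and 284, 302 and 384 in fasting (0.85 ± 0.14, adjusted p = 0.0046). STK40, a kinase-like protein related to the Tribbles family, rose (1.06 ± 0.08, adjusted p = 0.00017), and so did CSNK2A2, a catalytic subunit of casein kinase 2 (0.89 ± 0.10, adjusted p = 0.00083). WNK2, a regulator of ion transport and of ERK signalling, fell, with 2739, 2736 and 3001 in control and 1206, 1199 and 835 in fasting (-1.41 ± 0.15, adjusted p = 0.00063). NEK4 (-1.07) and SBK1 (-1.19) fell as well. Exons of NEK4 overlap on the opposite strand with SPCS1 over 42.2% of their bases. The 13 genes of the set in this mixed group had 5 rises and 8 falls.

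Tribbles pseudokinases bind ubiquitin ligases and MAP kinase kinases without much catalysis of their own. TRIB1 rose, with 1327, 1305 and 1174 in control and 3622, 3456 and 3627 in fasting (1.49 ± 0.08, adjusted p = 4.1e-05), and TRIB2 fell, with 81.9, 76.0 and 74.1 in control and 26.7, 30.3 and 28.9 in fasting (-1.40 ± 0.15, adjusted p = 0.00060). Both had fasting libraries close to one another. The nuclear receptor binding proteins NRBP1 and NRBP2 are also pseudokinases, and NRBP1 rose (0.65 ± 0.09, adjusted p = 0.0027) while NRBP2 had -0.71 and did not pass. VRK3, a relative of VRK1 with little activity, rose (0.60 ± 0.11, adjusted p = 0.010), but not without control replicate 2 or 3 (adjusted p 0.056 to 0.064). CSNK1G2, a membrane-bound casein kinase 1, fell (-0.67 ± 0.11, adjusted p = 0.0048). COQ8A, an atypical kinase of coenzyme Q synthesis in mitochondria, rose (0.71 ± 0.10, adjusted p = 0.0026), and its relative ADCK2 fell (-0.56), the latter not without control replicate 1, 2 or 3 or fasting replicate 1 or 2 (adjusted p 0.058 to 0.11).

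RIOK3 and RIOK2, atypical kinases that act in maturation of the small ribosomal subunit, rose. RIOK3 had 519, 467 and 491 in control and 1459, 1600 and 1447 in fasting (1.61 ± 0.09, adjusted p = 3.9e-05) and RIOK2 had 382, 403 and 419 in control and 631, 634 and 732 in fasting (0.73 ± 0.10, adjusted p = 0.0020). CHKA, which makes phosphocholine and is no protein kinase, rose as well (0.71 ± 0.09, adjusted p = 0.0016). CDKL2 and CDKL1, which resemble cyclin-dependent kinases, fell. CDKL2 had few reads, 27.6, 36.9 and 31.3 in control and 10.2, 8.37 and 6.88 in fasting (-1.80 ± 0.23, adjusted p = 0.0013). CDKL1 had -0.82, lost without control replicate 1, 2 or 3 or fasting replicate 2 (adjusted p 0.094 to 0.17), and its exons overlap on the opposite strand with another gene over 26.1% of their bases.

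Of the 26 genes with no kinase fold, 9 rose, 16 fell and 1 did not pass. The 11 with a C1 domain, which binds diacylglycerol in protein kinase C and gives the match, had 5 rises and 5 falls. ARHGEF2 (GEF-H1), a microtubule-bound exchange factor for small GTPases, had 1276, 1271 and 1357 in control and 5145, 5101 and 5150 in fasting (1.98 ± 0.07, adjusted p = 9.4e-06), the most even fasting libraries of the large rises. DGKI, which converts diacylglycerol to phosphatidic acid, rose (1.48 ± 0.10, adjusted p = 9.4e-05), as did PLEKHM1, an adaptor of lysosome fusion (1.09 ± 0.12, adjusted p = 0.00064). ARHGEF28 and ARHGAP29, regulators of small GTPases, rose by 0.79 and 0.61, the first not without control replicate 1, 2 or 3 or fasting replicate 2 (adjusted p 0.051 to 0.059) and the second not without control replicate 1, 2 or 3 or fasting replicate 1 or 2 (adjusted p 0.13 to 0.17). RASSF5, a RAS and RAP effector, fell with 164, 140 and 134 in control and 27.9, 35.6 and 19.3 in fasting (-2.40 ± 0.23, adjusted p = 0.00040). RACGAP1, part of the cytokinesis machinery (-0.97), and VAV2, an exchange factor for small GTPases (-0.53), fell too.

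Of 4 genes whose description names a domain of PKA regulatory or anchoring proteins, 3 fell and 1 rose. Under RLE 2 fell and 1 rose, and when libraries were scaled to their reads in listed genes 3 fell and 0 rose. The domain name does not make each of them a partner of PKA. AKAP5, which anchors PKA and calcineurin at the membrane, had the lowest log2 fold change of the set (-2.49 ± 0.23, adjusted p = 0.00038). Its counts were 155, 177 and 172 in control and 41.9, 22.0 and 26.1 in fasting. As a plain ratio of normalized counts PACSIN1 fell further, from few reads. SPA17, which shares the dimerization fold of PKA regulatory subunits, had -1.43, and PRKAR2A, a regulatory subunit of PKA, had -0.65. PRKAR2A was lost without control replicate 1, 2 or 3 or fasting replicate 2 (adjusted p 0.052 to 0.11) and was -0.20 with the length trend removed. ASCC1, a subunit of a transcription coactivator complex that is matched only by a domain name, rose (0.76 ± 0.09, adjusted p = 0.00094).

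PDK3 and PDK4, mitochondrial kinases that switch off pyruvate dehydrogenase, fell. They were the only members of their family in the set, and belong to another enzyme family than the other protein kinases. PDK4 had 27.6, 27.7 and 28.3 in control and 8.89, 13.6 and 2.75 in fasting (-1.83 ± 0.46, adjusted p = 0.040), from 22 reads in fasting and 106 in control, and its call was lost without control replicate 1, 2 or 3 or fasting replicate 1 (adjusted p 0.081 to 0.16). It was -1.27 without fasting replicate 3. PDK3 had 943, 936 and 869 in control and 584, 537 and 358 in fasting (-0.92 ± 0.18, adjusted p = 0.010), and was lost without control replicate 1 (adjusted p 0.054). KIAA1324 had few reads as well, 41 in fasting and 10 in control (2.42 ± 0.48, adjusted p = 0.012), and was lost without control replicate 1 (adjusted p 0.053). PACSIN1, an adaptor of endocytosis, had 3 reads in fasting and 37 in control, a ratio of normalized counts of 0.125 (95% interval 0.0246 to 0.394, exact, for counting error only), and its call was lost without control replicate 3 (adjusted p 0.081). PPP1R12B, a subunit of myosin phosphatase (-1.37 ± 0.26, adjusted p = 0.010), was lost without control replicate 1 (adjusted p 0.051). BAZ1B, a chromatin protein with tyrosine kinase activity towards histone H2AX, had -0.75 and was lost without control replicate 1, 2 or 3 or fasting replicate 2 (adjusted p 0.064 to 0.14).

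Other falls in the set were those of CAMK2N2, an inhibitor of calcium and calmodulin-dependent kinase II (-0.88), whose exons overlap a gene on the opposite strand over 27.4% of their bases, DGKQ, a diacylglycerol kinase (-0.68), PRAG1, a pseudokinase (-0.71), and TNFRSF21, a death receptor (-0.72). KNDC1, a RAS guanine nucleotide exchange factor, had -0.92, KIAA1324L had -1.11, and the loci named AC004151.1 and AC005726.1 had -0.65 and -1.33.

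Related kinases were compared as a ratio within each library, which no scaling of libraries can change. These pairs were chosen after their values were seen, and the ratios are given with no test. ABL2 over ABL1 was 0.591, 0.590 and 0.532 in control and 2.52, 2.34 and 1.59 in fasting. DYRK3 over DYRK2 was 0.726, 0.699 and 0.750 in control and 2.87, 3.11 and 3.93 in fasting. In both pairs the gene with fewer reads in control medium had more in fasting medium, in every library. SIK1 over SIK2 was 0.0655, 0.0673 and 0.0763 in control and 0.332, 0.403 and 0.672 in fasting. TRIB1 over TRIB2 was 16.2, 17.2 and 15.8 in control and 136, 114 and 126 in fasting. The ratio for the Tribbles pair shows only a relative change, and the rise of TRIB1 and fall of TRIB2 come from the scaled counts. For this ratio fasting replicate 3 lay between the other fasting libraries. RPS6KA2 over RPS6KA1 was 0.0164, 0.0147 and 0.0166 in control and 0.0877, 0.102 and 0.0729 in fasting, VRK3 over VRK1 was 0.531, 0.542 and 0.492 in control and 1.56, 1.42 and 1.57 in fasting, and CLK1 over CLK4 was 2.59, 3.27 and 2.96 in control and 10.8, 9.83 and 11.0 in fasting. The groups did not overlap in any of these pairs. For a gene higher in fasting medium set over a gene lower there, this follows from the selection of listed genes. Ratios between transcripts of unequal length also carry the length trend of fasting replicate 3.

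**Figure D4:**
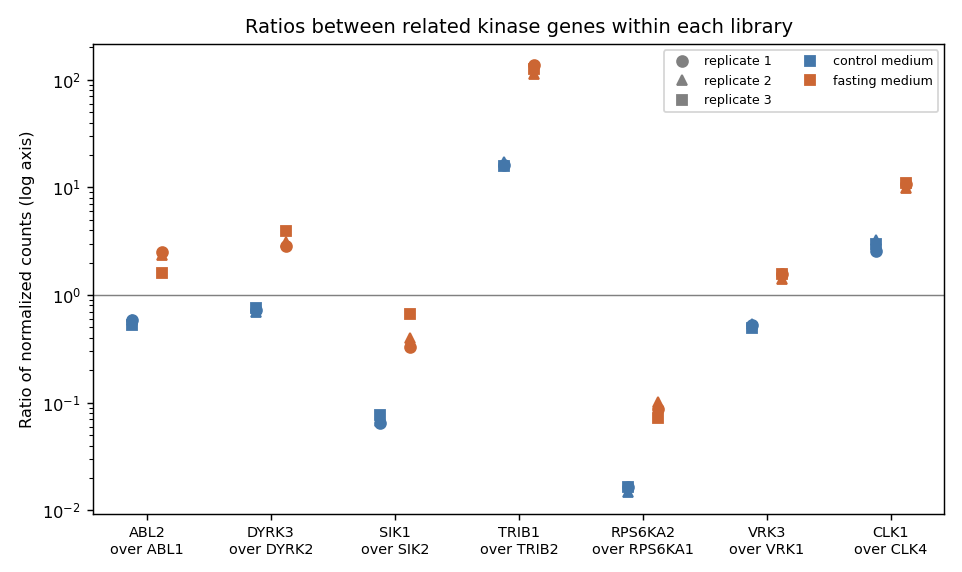
Ratio of normalized counts of related kinase genes within each library (vertical log axis) for 7 pairs, with control medium in blue, fasting medium in orange and a marker shape per replicate; the grey line marks equal counts. ABL2 over ABL1, DYRK3 over DYRK2 and VRK3 over VRK1 lie below 1 in each control library and above 1 in each fasting library.

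Per kilobase of transcript, the order of the kinases changed with the medium. In control medium the highest levels were those of EPHA2 (1569 normalized counts per kb), CSNK1G2 (912), RPS6KA4 (848) and ABL1 (802). In fasting medium CLK1 stood first at 1909 normalized counts per kb, from place 37 in control medium, and ABL2 second at 1206, from place 46. They were followed by ABL1 (1158), ARHGEF2 (1156) and DYRK3 (1072), and EPHA2 stood in place 6 at 1064. The places of ABL2, ABL1, ARHGEF2, DYRK3 and EPHA2 are close together, and no test was made between genes. That of ABL2 rests on the mean of uneven fasting libraries (18275, 16770 and 8883 normalized counts), with fasting replicate 3 far below the others. The order within each library was not taken.

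The low reading of long transcripts in fasting replicate 3 was described over the 110 genes whose mean reached 100 normalized counts in either medium. Across these genes, the log2 difference of fasting replicate 3 from the other fasting libraries had a Spearman correlation of -0.720 and a Pearson correlation of -0.601 with transcript length. The genes share libraries, so no p is given. Ordered by length over all 124 genes, the median difference was 0.21 in the shortest 41 (1033 to 3229 bases), -0.08 in the middle 41 and -0.56 in the longest 42 (5161 to 15431 bases). The median transcript of the set was 4358 bases, against 3365 over listed genes, and fasting replicate 3 was the lowest fasting library in 53.2% of the set against 42.5% of listed genes. The log2 fold change itself had a Spearman correlation of -0.102 with length, and 0.0572 when taken from fasting replicates 1 and 2 alone. Rises were 20, 14 and 13 and falls 20, 25 and 24 from the shortest to the longest genes.

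**Figure D5:**
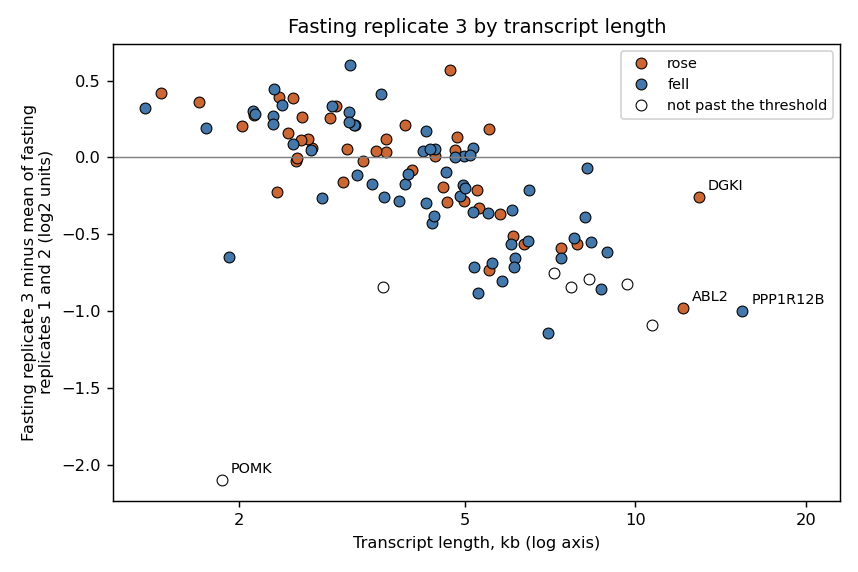
Log2 difference between fasting replicate 3 and the mean of the other fasting libraries (vertical axis) against transcript length in kb (horizontal log axis) for the 110 genes whose mean reached 100 normalized counts in either medium, coloured by call. Points lie mostly above 0 for short and below 0 for long transcripts; POMK, at 1865 bases, is the lowest at -2.10.

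The 8 genes that did not pass were ROCK2, MAP3K20, NRBP2, SIK2, PIK3C2B, TNS1, LMTK3 and POMK, and in all of them but LMTK3 fasting replicate 3 was far below the other fasting libraries. POMK, a kinase of O-mannosyl glycans on dystroglycan, had 372, 331 and 320 in control and 221, 221 and 50.9 in fasting (-1.32 ± 0.51, adjusted p = 0.29). Its value was -0.62 without fasting replicate 3. PIK3C2B, a lipid kinase of endosomes, had 653, 580 and 655 in control and 447, 451 and 250 in fasting, and TNS1, which links integrins to actin, had 206, 211 and 248 in control and 164, 149 and 72.9 in fasting. Without fasting replicate 3 all 8 passed (as did 99.9% of listed genes), and the values of the 7 other than LMTK3 came closer to 0 by more than 1.5 times. With the trend of each library with length removed, 102 of the 124 genes passed (83% of listed genes): 13 falls were lost, those of KIAA1324L, JAK2, KNDC1, BAZ1B, EEF2K, PRKX, PRKAR2A, DYRK2, CAMK1D, CASK, TAOK2, TYRO3 and VAV2, and 1 rise, that of CDK7. Values of 45 genes moved by more than 1.5 times there, 37 of them towards 0 or past it and 8 away from it. Among the large changes, PPP1R12B went to -0.47, WNK2 to -0.84, MAP3K1 to -0.69, CIT to -0.91 and DGKI to 2.30, all of which passed. EEF2K went to -0.17. CLK1 went from 2.78 to 2.49 and ABL2 from 2.41 to 3.20, both by less than 1.5 times. Rises that had been lost without some library moved both ways. DDR2 went to 1.97, HUNK to 1.39, LATS2 to 1.27, ARHGEF28 to 1.24, ARHGAP29 to 1.03 and ABL1 to 0.91, away from 0. MAP2K5 went to 0.43, VRK3 to 0.31 and CDK7 to 0.22, towards 0, and KIAA1324 stood at 2.44. The part of the length trend in each single result was not tested beyond these values.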

How the data were processed

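Libraries of total RNA from 6 samples were made with a strand-specific kit, per the labels' protocols. The shared treatment text describes low-serum medium for every sample, so groups were taken from the treatment label. DESeq 1.10.1, HTSeq 0.6.1 and UMI-tools 1.0.0 stand in the submitters' processing notes, which do not say what each was used for. Which aligner, genome build and annotation were used, and whether counting was stranded, is not given in the sources used here.

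The deposited sample columns carry no unit name. Their values are a signal, the authors' normalized read counts: 100% of values in each library were whole reads divided by a size factor (0.727 to 1.41), within a tolerance of 0.01 read. The authors' deposited p-values and their adjusted values gave the number of genes tested, and the authors' deposited log2 fold changes were not used for any result.

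The main test was limma 3.58.1 (R 4.3.3; mean-variance trend, two-sided) on log2(normalized count + 1) of genes whose mean reached 1 in either medium. Adjusted p-values from limma are Benjamini-Hochberg values over 29845 genes, with unlisted genes given a p of 1. Moderation was estimated on listed genes, which were chosen for their difference. The log scale understates changes of low genes. It called 3312 listed genes, while on the recovered reads edgeR 4.0.16 called 3359 and DESeq2 1.42.0 called 3483. Alternatives were other pseudocounts, filters, tools and scalings, a replicate block, removal of each library's trend with GENCODE 29 transcript length (a curve fitted to log2 length), adjustment over listed genes only, the 90 genes with a catalytic domain, and leaving out each library.

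The set and the gene lists were chosen with earlier results of these data known. Genes were named by rule: per kinase group the 2 largest rises and falls, the 12 largest of each in the set (mean of at least 20 normalized counts), those of 42 kinases given by name that are in the set (20), genes that did not pass, and genes that an alternative removed or reversed. Outside the rule, and chosen after their values were seen, are CAMK2N2, SBK1, RPS6KA4, FGFR3, AC005726.1, NEK4, RPS6KA1, PAK6, PRAG1, STK40, MAP3K4, CLK4, DGKQ, PRKAG2, PLEKHM1, AC004151.1, TNFRSF21, MINK1, RACGAP1, PRKACA and DGKI. A planned look at motifs in the proteins was not made, and 1 gene of the set is counted but not reported by name here.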

Additional observations from a re-analysis of the deposited data

How the results depend on the processing

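Of the 124 genes, 61 passed the threshold in the main test and in all 18 alternatives, and 55 that passed in the main test lost the call in at least 1. Scaling each library to its reads in listed genes gave 22 rises (47 in the main test), 91 genes changed at least 2-fold (46) and a median log2 fold change of -1.09 (-0.64), and 22.4% of its calls were rises against 40.5%. RLE scaling gave a median of -0.42 and 49.5% rises among its calls. With the length trend removed the median was -0.33 and 102 genes passed, and TYRO3 changed sign, to 0.043. The cause was not tested. Leaving out 1 library gave 86 to 124 calls, 38 to 47 rises and 48 to 77 falls. Over listed genes the same fits gave 2624 to 3509 calls, 1464 to 1762 rises and 1160 to 1747 falls. In the set, 42 to 48 genes changed at least 2-fold in these fits, and medians were -0.66 to -0.53. The value of -0.53 was that without fasting replicate 3. Fits without a library had fewer samples, and 33 genes lost the call in at least 1 of them. For the counts of 61, 55, 91, 33 and 42 to 48 genes no share over listed genes was taken, so they do not set the kinase-annotated genes apart. DESeq2 passed 123 genes (3483 over listed genes), and edgeR with the authors' size factors or TMM 117 each (3359 and 3379 over listed genes). Same-numbered samples of both media had correlations of 0.0301, 0.0325 and 0.0686 between their deviations over 3116 genes, so the numbers were not taken to pair samples, and not every sample correlated best with its own number. With the replicate number as a block 114 genes passed, 44 up and 70 down (3293 over listed genes, 1715 up and 1578 down). There ABL1, ARHGAP29, DDR2 and CDKL1 lost their call and SIK2 and MAP3K20 gained one. Depth limits the genes with few reads (PLK2, KIAA1324, SPA17, CDKL2, PDK4 and PACSIN1). With a minimum mean of 50 normalized counts, 118 genes were tested and 108 passed (2911 over listed genes).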
